A study of Mus musculus with 12 samples.

Results

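Immediate early factors are transcription factors whose genes are switched on soon after a stimulus, without new protein synthesis. The genes described here were 10 listed by name, most of them of that class: Fos, Fosb, Fosl2, Jun, Junb, Egr1, Egr2, Atf3, Ier3 and Myc. Each was taken as its brightest probe set that carries its symbol alone, and 7 of the 10 could be read in this way, out of 26989 genes in all. These were Fosl2, Fos, Fosb, Jun, Atf3, Egr2 and Myc. Junb lies on a probe set that also carries Prdx2 and was not read as Junb, and Egr1 and Ier3 were not analysed here. The list itself uses no measured value, but it was chosen with earlier results of these data known. Counts of its genes beside the shares over all genes are therefore not an independent test. Ier3 encodes a small stress-induced protein and is not itself a transcription factor.

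FOS and JUN proteins pair through leucine zippers to form AP-1, which binds short DNA sites in the control regions of genes for growth, matrix turnover and inflammation. ATF3 is a related zipper protein that is induced by many stresses and often acts as a repressor, and EGR2 is a zinc finger factor. MYC binds DNA as a pair with MAX and raises genes for ribosomes, metabolism and cell growth. In the heart, several of these genes are known to be induced early after a rise in pressure load, and their induction is usually brief.

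Total RNA of whole hearts from male C57BL/6J mice aged 10 weeks was measured on Clariom D mouse arrays, 1 array per heart. There were 4 groups of 3 hearts, all taken 2 weeks after surgery: ADAM12 knockout hearts after transverse aortic constriction (TAC), ADAM12 knockout hearts after sham surgery, wild type hearts after TAC and wild type hearts after sham surgery. TAC is a surgical narrowing of the aorta that loads the left ventricle with pressure, and ADAM12 is a membrane-anchored metalloprotease. The labels call the mice ADAM12 knockout and the replicates biological, and say no more of the allele or of the tissue in which it acts.

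The arrays had like signal, with medians of all probe sets other than controls between 4.93 and 5.10 on the log2 scale, and medians of the 23 background probe sets between 2.96 and 3.17. The number of arrays limits the precision. On the probe set of Adam12, which also carries the symbol 5830403F22Rik, 6 of 6 knockout arrays lay below every wild type array, at 4.25 to 4.40 against 4.46 to 4.80. All of these values lay under the array medians, and the share of all probe sets with such a split was not counted. The knockout difference passed neither after TAC (-0.37, limma adjusted p = 0.163) nor after sham surgery (-0.19, limma adjusted p = 0.868), so this check of the labels is weak. Where in the gene these probes lie was not known here. Of 9 measured cardiomyocyte markers the mean log2 signal lay between 16.92 and 17.14 on every array, so the labelled tissue carried its defining genes. The mean of 7 atrial markers varied widely within every group. It ran from 10.30 to 12.94 in knockout TAC hearts and from 10.44 to 13.15 in knockout sham hearts. In wild type hearts it ran from 9.94 to 12.18 after TAC and from 10.45 to 13.05 after sham surgery. The part of this spread in the values of the 7 genes was not tested. Wild type TAC replicate 2 was high in its group on most of the 7 genes and on fibroblast markers. It was the highest array of the group for 6 of the 7 genes and the lowest for Fosb. Its mean over 8 fibroblast markers was 12.61, against 11.84 and 11.22 on the other wild type TAC arrays. Its mean over 10 macrophage and monocyte markers was the lowest of the group, at 8.74 against 8.97 and 8.90. Array weights, which count more variable arrays less, were an alternative setting. They gave this array the largest weight of its group, at 1.51, against 0.645 for replicate 1 and 0.44 for replicate 3. Differences given below without it show how far values depend on a single array, and do not replace the main values.

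The starts of 3 of these genes are shown because the results turn on them: Fosl2 has the largest TAC difference of the 7 genes, Atf3 a call that depends on single arrays, and Fos is the best known gene of the class. Each window is the 250 bases before the annotated start, from RefSeq on GRCm38.p6. An entry was found for 6 of the 7 genes. Capitals mark letters that match a searched motif.
Fosl2: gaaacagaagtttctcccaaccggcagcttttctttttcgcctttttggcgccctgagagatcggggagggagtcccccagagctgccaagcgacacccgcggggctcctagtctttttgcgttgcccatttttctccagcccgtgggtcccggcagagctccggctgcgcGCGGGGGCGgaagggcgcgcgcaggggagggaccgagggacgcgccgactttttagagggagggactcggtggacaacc
Atf3: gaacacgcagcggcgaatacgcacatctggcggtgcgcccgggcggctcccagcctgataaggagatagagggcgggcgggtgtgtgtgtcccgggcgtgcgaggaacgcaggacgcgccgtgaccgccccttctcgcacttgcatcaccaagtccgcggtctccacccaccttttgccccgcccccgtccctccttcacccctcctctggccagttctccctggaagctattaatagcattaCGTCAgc
Fos: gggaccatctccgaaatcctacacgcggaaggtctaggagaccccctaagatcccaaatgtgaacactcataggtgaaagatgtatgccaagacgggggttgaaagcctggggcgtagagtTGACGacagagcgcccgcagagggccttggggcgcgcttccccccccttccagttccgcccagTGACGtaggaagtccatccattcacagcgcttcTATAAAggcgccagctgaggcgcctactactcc

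The Fosl2 window lies at chr5:32136222-32136471 on the plus strand and precedes the gene at chr5:32136472-32157840. It holds 1 match to the EGR site GCGNGGGCG, at bases -79 to -71 counted back from the start. The Atf3 window lies at chr1:191183334-191183583 and the gene, on the minus strand, at chr1:191170296-191183333. It holds 1 match to the core of a cAMP response element (CRE), TGACG read on the other strand, at bases -7 to -3. The Fos window lies at chr12:85473640-85473889 on the plus strand, before the gene at chr12:85473890-85477274. It holds TGACG at bases -129 to -125 and -66 to -62, and TATAAA at -33 to -28.

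Across 32851 windows of the same length, searched on both strands, the EGR site was found in 4.70%, TGACG in 17.8% and TATAAA in 12.4%. The AP-1 site TGANTCA was found in 6.75% of all windows, the full CRE TGACGTCA, which contains TGACG, in 1.55%, the MYC and MAX E-box CACGTG in 6.02% and the CArG box, the site of serum response factor, in 1.47%. The 3 windows printed hold none of these last 4. Egr2 has 5 annotated starts, and 4 of its windows hold a CArG box, at 2 distinct sites, since 3 of these windows overlap and share the same letters. The motif TGACG was added after the sequences were seen. These are matches of letters only.

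The 7 genes covered a wide range of signal. Averaged over the 12 arrays, Jun was brighter than 88.4% of probe sets and Fosl2 brighter than 80.9%. Atf3 was brighter than 71.8%, Myc than 68.9% and Egr2 than 67.1%. Fos was brighter than 53.1%, near the middle, and Fosb, the dimmest of the 7, than 33.5%. Levels of different probe sets are not set against each other here beyond these ranks. All levels and differences below are on the log2 scale, where a difference of 1 is a doubling of signal, errors beside levels are SD over 3 arrays, and errors beside differences are standard errors from limma.

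**Figure D1:**
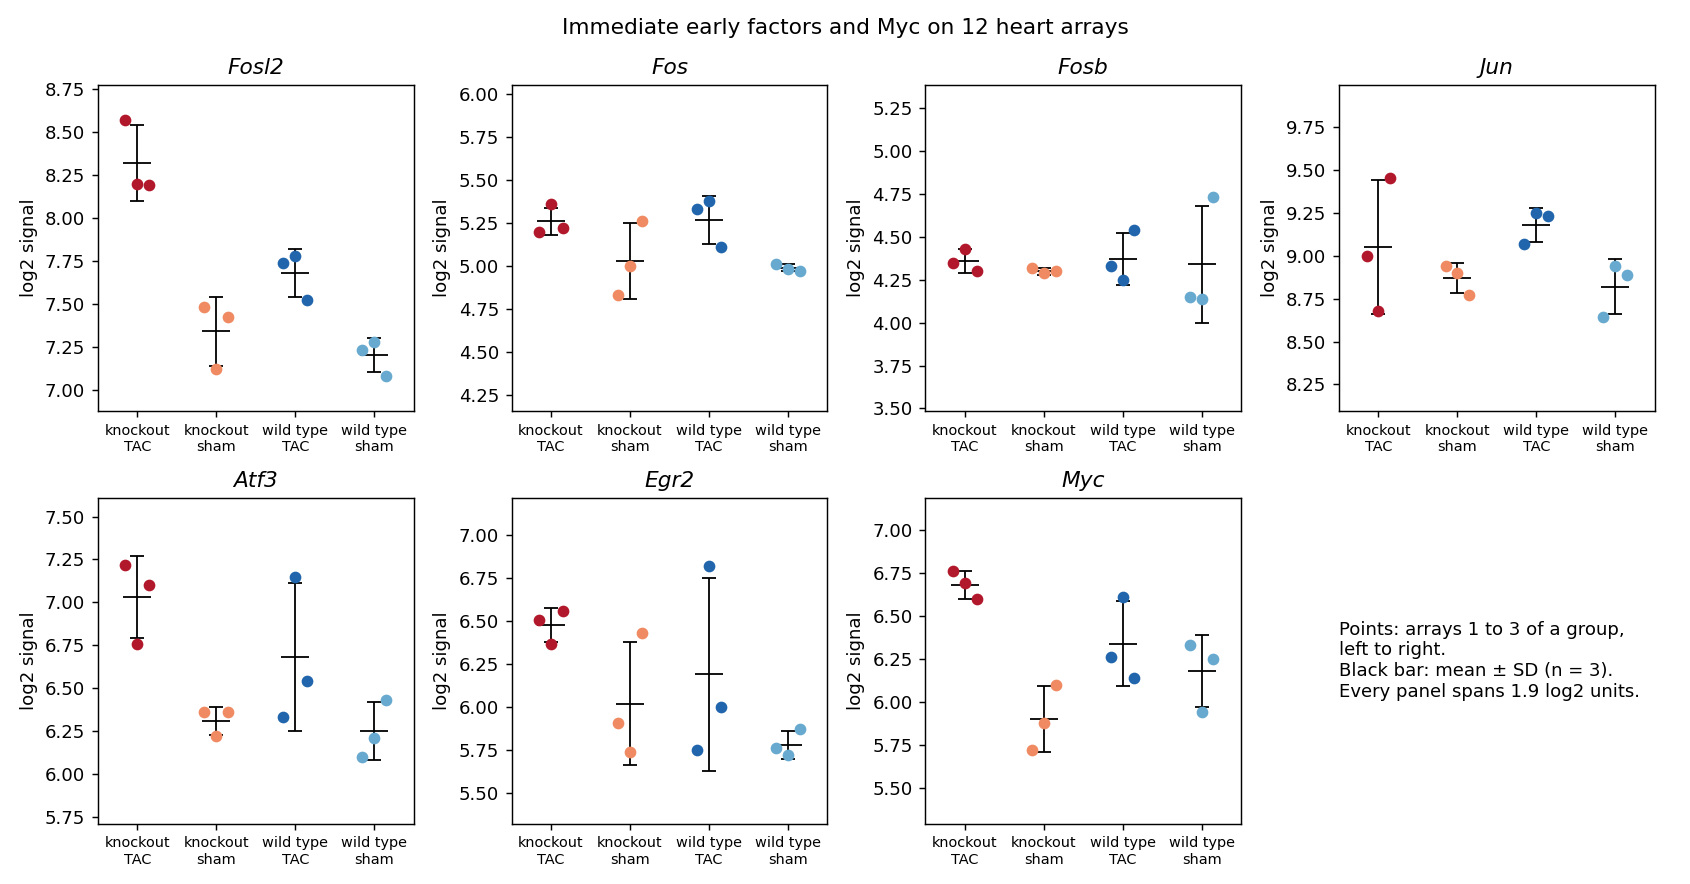
Log2 signal (vertical axis) of the 7 genes in each heart, 1 panel per gene, with the groups in the order knockout TAC, knockout sham, wild type TAC and wild type sham. Points are single hearts and lines are group means. Fosl2 reads 8.19 to 8.57 in knockout TAC hearts, above every other array, and Fosb overlaps across all groups.

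TAC against sham in knockout hearts asks how these genes stand 2 weeks after the load was raised in mice without ADAM12. Fosl2, Myc and Atf3 rose, with signal 1.97, 1.72 and 1.65 times that of sham hearts. The other 4 genes did not pass. That is 3 of 7 genes called higher at an adjusted p under 0.05, while 7.08% of all genes were called higher in this comparison, 5.68% lower and 12.8% in either direction.

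Fosl2 encodes FRA-2, a FOS family subunit of AP-1. It read 8.57, 8.20 and 8.19 in knockout TAC replicates 1 to 3, against 7.48, 7.12 and 7.42 in knockout sham replicates. Every TAC array lay above every sham array. The difference was 0.98 ± 0.13 (95% interval 0.70 to 1.26, limma with Benjamini-Hochberg adjustment over all genes, adjusted p = 0.000725), larger than that of 98.6% of genes.

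Myc read 6.76, 6.69 and 6.60 in knockout TAC hearts, against 5.72, 5.88 and 6.10 in knockout sham hearts. The groups did not overlap, and the TAC hearts lay close together at 6.68 ± 0.08 while the sham hearts averaged 5.90 ± 0.19 (n = 3 each). The difference was 0.78 ± 0.14 (95% interval 0.47 to 1.10, limma adjusted p = 0.00398).

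Atf3 read 7.22, 6.76 and 7.10 in knockout TAC hearts, against 6.36, 6.22 and 6.36 in knockout sham hearts. The groups did not overlap. The difference was 0.72 ± 0.19 (95% interval 0.31 to 1.13, limma adjusted p = 0.0266). The call was lost, at limma adjusted p between 0.0622 and 0.0959, when knockout TAC replicate 1 or 3 or any knockout sham replicate was left out, which removes an array from the groups compared.

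Of the other FOS and JUN genes, Fos read 5.20, 5.36 and 5.22 in knockout TAC hearts, against 4.83, 5.0 and 5.26 in knockout sham hearts. Knockout sham replicate 3 lay within the TAC range, and the difference of 0.23 ± 0.11 did not pass (limma adjusted p = 0.225). Jun, the main partner of FOS proteins, read 9.0, 8.68 and 9.45 in knockout TAC hearts, against 8.94, 8.90 and 8.77 in knockout sham hearts. The TAC hearts spread on both sides of the sham hearts, with a difference of 0.17 ± 0.16 (95% interval -0.18 to 0.53, limma adjusted p = 0.587). Fosb, another FOS family gene, read 4.30 to 4.43 in knockout TAC hearts and 4.29 to 4.32 in knockout sham hearts, a difference of 0.06 ± 0.14 (limma adjusted p = 0.856).

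Egr2 read 6.51, 6.37 and 6.56 in knockout TAC hearts, against 5.91, 5.74 and 6.43 in knockout sham hearts. Knockout sham replicate 3 again lay among the TAC arrays. The difference was 0.46 ± 0.24 (95% interval -0.07 to 0.98, limma adjusted p = 0.28). Arrays of the TAC group lay wholly above the sham group for 3 of the 7 genes, and for 15.4% of all genes. The median difference of the 7 genes was 0.46, against -0.03 over all genes tested.

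Markers of other cells moved beside these genes in the same comparison. The mean of 8 measured fibroblast markers was 12.88 to 13.25 in knockout TAC hearts, against 10.66 to 10.86 in knockout sham hearts, and 7 of the 8 rose. The mean of 10 measured macrophage and monocyte markers was 9.03 to 9.78 in knockout TAC hearts, against 8.19 to 8.58 in knockout sham hearts, and 8 of the 10 rose. Cardiomyocyte markers averaged 16.92 to 17.08 in knockout TAC hearts, against 17.08 to 17.14 in knockout sham hearts, with 1 of 9 rising and 3 falling. Neutrophil markers were dim, at 4.58 to 4.94 in knockout TAC hearts and 4.61 to 4.71 in knockout sham hearts, with 1 of 8 rising and 0 falling. Endothelial markers averaged 11.28 to 11.48 in knockout TAC hearts, against 11.05 to 11.10 in knockout sham hearts, with 2 of 8 rising and 0 falling. Of 6 smooth muscle and pericyte markers 0 rose and 1 fell. Of 6 lymphocyte markers and 7 atrial markers 0 passed. In bulk hearts, more cells of a type and more RNA per cell cannot be told apart, and the part of these markers in the values of the 7 genes was not tested.

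TAC against sham in wild type hearts asks the same of hearts with ADAM12. In these hearts 0 of the 7 genes passed in limma, while 0.178% of all genes (48) were called in either direction, 0.0667% higher and 0.111% lower. At an unadjusted p under 0.05 there were 4 of 7, against 12.3% of all genes. All 7 differences lay above 0, as did those of 57.0% of all genes, with a median of 0.36 against 0.02 over all genes.

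Fosl2 read 7.74, 7.78 and 7.52 in wild type TAC hearts, against 7.23, 7.28 and 7.08 in wild type sham hearts. The groups did not overlap, and the difference was 0.48 ± 0.13 (95% interval 0.20 to 0.76, limma adjusted p = 0.156). Jun read 9.07, 9.25 and 9.23 in wild type TAC hearts, against 8.64, 8.94 and 8.89 in wild type sham hearts, without overlap, a difference of 0.36 ± 0.16 (limma adjusted p = 0.395). Fos read 5.33, 5.38 and 5.11 in wild type TAC hearts, against 5.01, 4.98 and 4.97 in wild type sham hearts, also without overlap, a difference of 0.29 ± 0.11 (limma adjusted p = 0.313). For these 3 of the 7 genes the TAC arrays were the higher ones, while the groups overlapped for Atf3, Egr2, Myc and Fosb. Over all genes 9.03% had TAC arrays wholly above sham arrays.

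For Atf3 and Egr2, wild type TAC replicate 2 lay above the other hearts of its group. Atf3 read 6.33, 7.15 and 6.54 in wild type TAC hearts, against 6.10, 6.21 and 6.43 in wild type sham hearts, a difference of 0.43 ± 0.19 (limma adjusted p = 0.387) that was 0.19 without wild type TAC replicate 2. Egr2 read 5.75, 6.82 and 6.00 in wild type TAC hearts, against 5.76, 5.72 and 5.87 in wild type sham hearts. Its difference was 0.41 ± 0.24, and 0.09 without wild type TAC replicate 2.

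Myc read 6.26, 6.61 and 6.14 in wild type TAC hearts, against 6.33, 5.94 and 6.25 in wild type sham hearts. These groups overlapped, with a difference of 0.16 ± 0.14 (95% interval -0.15 to 0.47, limma adjusted p = 0.705) that was 0.02 without wild type TAC replicate 2. Fosb read 4.33, 4.25 and 4.54 in wild type TAC hearts, against 4.15, 4.14 and 4.73 in wild type sham hearts. The highest and the lowest of these arrays were both sham hearts, and the difference was 0.04 ± 0.14. Fibroblast markers averaged 11.22 to 12.61 in wild type TAC hearts, against 10.66 to 10.92 in wild type sham hearts, where 0 of 8 passed in limma and 7 of 8 had an unadjusted p under 0.05. Macrophage and monocyte markers averaged 8.74 to 8.97 in wild type TAC hearts, against 8.22 to 8.55 in wild type sham hearts, where 0 of 10 passed and 6 of 10 had an unadjusted p under 0.05. The part of both lists in the values of the 7 genes was not tested.

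**Figure D2:**
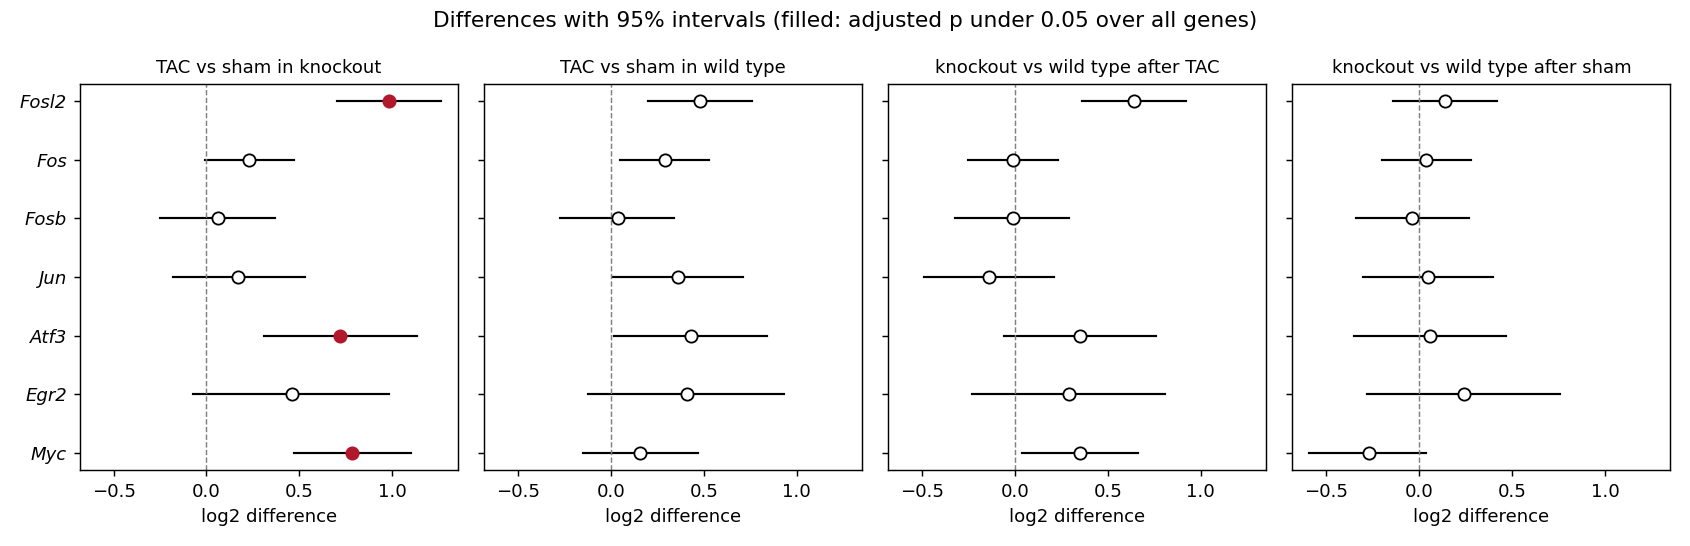
Log2 differences of the 7 genes (horizontal axis) with 95% intervals from limma, by comparison. Filled points passed an adjusted p under 0.05 over all genes. In knockout hearts Fosl2 lies at 0.98, Myc at 0.78 and Atf3 at 0.72, and in wild type hearts no point is filled.

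Knockout against wild type hearts after TAC asks whether loss of ADAM12 changes the loaded heart. Of the 7 genes 0 passed in limma, and 0.0111% of all genes (3) were called in either direction. At an unadjusted p under 0.05 there were 2 of 7, Fosl2 and Myc, against 14.6% of all genes. For Fosl2 the knockout hearts, at 8.32 ± 0.22, lay above the wild type hearts, at 7.68 ± 0.14 (n = 3 each), with no overlap. The difference was 0.64 ± 0.13 (95% interval 0.36 to 0.92, limma adjusted p = 0.0631), and 7.91% of all genes had knockout arrays wholly above wild type arrays. Without wild type TAC replicate 2 it passed, at 0.69 and limma adjusted p = 0.0358. In that setting 774 of all genes were called, and the array left out was the highest of its group for Fosl2. It did not pass without wild type TAC replicate 1 or replicate 3.

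For Myc the knockout TAC hearts averaged 6.68 ± 0.08 and the wild type TAC hearts 6.34 ± 0.25, a difference of 0.35 ± 0.14 (limma adjusted p = 0.283). The lowest knockout array, at 6.60, lay just under the highest wild type array, at 6.61. Atf3 averaged 7.03 ± 0.24 in knockout TAC hearts and 6.68 ± 0.43 in wild type TAC hearts, a difference of 0.35 ± 0.19 (limma adjusted p = 0.418). Leaving out wild type TAC replicate 1 gave 0.18, and leaving out replicate 2 gave 0.59. The differences of Egr2, Jun, Fos and Fosb were 0.29, -0.14, -0.01 and -0.01. Their 95% intervals all held 0, the widest, of Egr2, running from -0.23 to 0.81. The difference of Egr2 was 0.07 without wild type TAC replicate 1 and 0.61 without replicate 2. For Jun it was -0.34 without knockout TAC replicate 3 and 0.04 without knockout TAC replicate 2.

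In the same comparison the cell markers also had higher means. The mean of the 8 fibroblast markers was 12.88 to 13.25 in knockout TAC hearts, against 11.22 to 12.61 in wild type TAC hearts. All 8 differences lay above 0, with a median of 1.42 and 6 at an unadjusted p under 0.05. The mean of the 10 macrophage and monocyte markers was 9.03 to 9.78 in knockout TAC hearts, against 8.74 to 8.97 in wild type TAC hearts, with all 10 differences above 0, a median of 0.56 and 7 at an unadjusted p under 0.05. Of all genes 38.3% had a difference above 0 in this comparison, with a median of -0.04. In limma 0 of these markers passed, and their part in the differences of Fosl2 and the other genes was not tested.

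Knockout against wild type hearts after sham surgery asks whether these genes stand apart without the load. Of the 7 genes 0 passed in limma, 0 did so at an unadjusted p under 0.05, and 0 genes of all tested passed, with 5.53% of all genes at an unadjusted p under 0.05. Myc averaged 5.90 ± 0.19 in knockout sham hearts and 6.18 ± 0.21 in wild type sham hearts, a difference of -0.27 ± 0.14 (limma adjusted p = 0.911). Fosl2 averaged 7.34 ± 0.20 in knockout sham hearts and 7.20 ± 0.10 in wild type sham hearts, a difference of 0.14 ± 0.13. These sham groups overlapped for both genes.

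By level, Fosl2 stood highest in knockout TAC hearts at 8.32, then in wild type TAC hearts at 7.68, knockout sham hearts at 7.34 and wild type sham hearts at 7.20. Of these neighbours only the sham groups overlapped. Myc stood highest in knockout TAC hearts at 6.68, then in wild type TAC hearts at 6.34, wild type sham hearts at 6.18 and knockout sham hearts at 5.90. For Myc every pair of neighbours in this order overlapped.

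The interaction sets the TAC response of knockout hearts against that of wild type hearts. It passed in limma for 0 of the 7 genes and for 0 of all genes, where the smallest adjusted p was 0.259. At an unadjusted p under 0.05 there were 2 of the 7 genes, against 11.0% of all genes. For Myc it was 0.62 ± 0.20 (95% interval 0.18 to 1.06, limma adjusted p = 0.302), and its parts are a difference of 0.35 between genotypes after TAC and of -0.27 after sham. For Fosl2 it was 0.50 ± 0.18 (95% interval 0.10 to 0.90, limma adjusted p = 0.352), from a difference of 0.64 between genotypes after TAC and of 0.14 after sham. The TAC responses of the genotypes were thus not shown to differ for any of the 7 genes. The response of Atf3 differed by 0.29 ± 0.27, that of Egr2 by 0.05 ± 0.34, that of Fosb by 0.02 ± 0.20, that of Fos by -0.05 ± 0.15 and that of Jun by -0.19 ± 0.23.

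Averaged over genotypes, which uses the same 12 arrays again, 4 of the 7 genes rose after TAC, while 7.49% of all genes were called higher, 6.12% lower and 13.6% in either direction. Fosl2 had all 6 TAC arrays above all 6 sham arrays, as 3.05% of genes did, with a difference of 0.73 ± 0.09 (limma adjusted p = 0.000486). Atf3 differed by 0.57 ± 0.13 (limma adjusted p = 0.014) and Myc by 0.47 ± 0.10 (limma adjusted p = 0.00889). Fos was the least certain of the 4, at 0.26 ± 0.08 (limma adjusted p = 0.0475), and lost its call in 16 of 20 other settings. Egr2, at 0.43 ± 0.17, Jun, at 0.27 ± 0.11, and Fosb, at 0.05 ± 0.10, did not pass.

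The genes around these factors were described from lists, counted over all genes tested. They were read against the same 7.08% higher, 5.68% lower and 12.8% in either direction for TAC in knockout hearts. The lists hold genes chosen by function, with earlier results of these data known, so their counts are not an independent test either. Of 16 measured genes for other AP-1, ATF and MAF factors 5 rose and 0 fell, with a median difference of 0.12. Jund, a JUN family gene that is usually expressed without a stimulus, rose by 0.58 ± 0.10 (limma adjusted p = 0.00296) to 8.42 in knockout TAC hearts, against 7.83 in knockout sham hearts. The membrane-bound factor gene Creb3 rose by 0.45, and the MAF family genes Mafk and Maf rose by 0.40 and 0.60.

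Of 35 measured genes for other immediate early products 9 rose and 0 fell, with a median of 0.30. Ptgs2, the inducible cyclooxygenase, rose by 1.56 ± 0.15 (limma adjusted p = 0.000389), to 8.08 in knockout TAC hearts against 6.52 in knockout sham hearts. The kinase gene Plk2 rose by 1.16, Ier5 by 0.72 and the antiproliferative gene Btg2 by 0.70. The other 26 did not pass.

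Upstream of these genes lie the MAP kinases, their target kinases and the factor SRF with its cofactors. Of 24 measured genes 5 rose and 4 fell, with a median of -0.09. Rps6ka3, a kinase that acts below ERK, rose by 0.53, and Dusp6, a phosphatase that switches ERK off, rose by 0.84. Rps6ka5, which encodes a kinase of histones and CREB, fell by 0.75, and Map2k4, a kinase of the JNK branch, fell by 0.37.

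In the MYC and MAX network 1 of 13 measured genes rose and 3 fell, with a median of -0.04. The share that rose was close to the 7.08% of all genes. Max, the partner of MYC, averaged 10.49 ± 0.20 in knockout TAC hearts and 11.15 ± 0.14 in knockout sham hearts, and fell by 0.67 ± 0.15 (limma adjusted p = 0.0127). Mlxip, a sensor of glucose, fell by 0.51, and Fbxw7, which marks MYC for breakdown, fell by 0.31. Mxd4, which competes with MYC for MAX, rose by 0.39. Myc and its partner gene Max thus moved in opposite directions in this comparison.

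Of 18 measured genes known as MYC targets 6 rose and 1 fell, with a median of 0.20. Tfrc, the transferrin receptor, rose by 1.86 ± 0.45 (limma adjusted p = 0.0192), with knockout sham hearts spread widely at 9.91 ± 0.91 and knockout TAC hearts at 11.77 ± 0.54. Wild type hearts averaged 11.49 ± 0.73 after sham surgery and 11.74 ± 0.25 after TAC, near the knockout TAC level, so knockout sham was the group that stood apart. Its difference from wild type sham hearts, -1.57 ± 0.45, did not pass (limma adjusted p = 0.892). The cyclin gene Ccnd2 rose by 1.01 and Srm, which makes spermidine, by 0.29. Hspd1, a mitochondrial chaperone, fell by 0.43.

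Of 14 measured genes known as AP-1 targets 8 rose and 0 fell, with a median of 0.74. Timp1, an inhibitor of matrix proteases, averaged 8.45 ± 0.78 in knockout TAC hearts and 5.34 ± 0.05 in knockout sham hearts, and rose by 3.11 ± 0.35 (limma adjusted p = 0.000446). Mmp3, a matrix protease, rose by 1.72, Il6, a cytokine, by 1.40, and Cd44, the receptor of hyaluronan, by 1.25. Il6 was dim, at 3.67 ± 0.10 in knockout sham hearts, under the array medians, and 5.07 ± 0.30 in knockout TAC hearts, about at them. Fibroblasts and macrophages also express several of these genes, and their part was not tested.

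**Figure D3:**
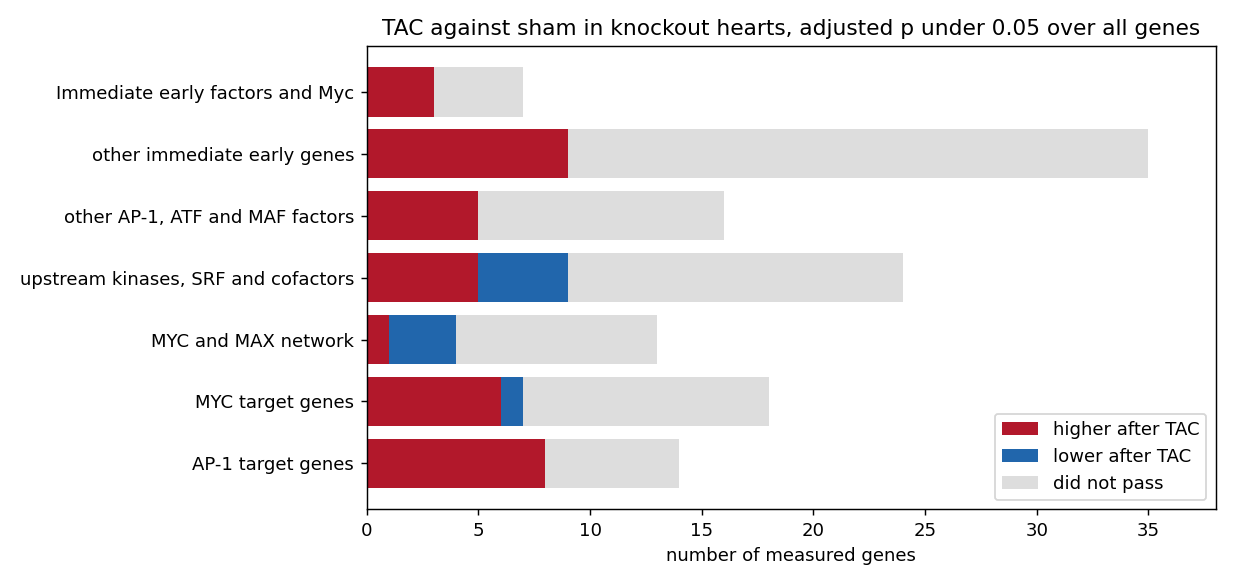
Number of measured genes per list (horizontal axis) that were higher, lower or did not pass for TAC against sham in knockout hearts, at a limma adjusted p under 0.05 over all genes. Among AP-1 targets 8 of 14 rose, and in the MYC and MAX network 1 of 13 rose and 3 fell. Over all genes 7.08% were called higher and 5.68% lower.

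In wild type hearts 0 genes of any of these 6 lists passed in limma for TAC. At an unadjusted p under 0.05, in either direction, there were 14 of 35 other immediate early genes, 9 of 24 upstream genes, 6 of 16 other AP-1, ATF and MAF factors, 3 of 18 MYC targets, 3 of 14 AP-1 targets and 1 of 13 genes of the MYC and MAX network. Over all genes 12.3% reached that p, close to the shares of the MYC targets and of the MYC and MAX network, and 0.178% were called. Not all of these genes were higher after TAC. Gadd45b (-0.81) and Klf10 (-0.55) among the other immediate early genes were lower. So were Map2k4, Nab1, Prkd1 and Rps6ka5 among the upstream genes, and Mlxip, the gene of the MYC and MAX network. Between knockout and wild type hearts after TAC, Mmp3 was the single gene of these lists that passed, where 0.0111% of all genes (3) did. It averaged 8.44 ± 0.16 in knockout TAC hearts and 6.77 ± 0.31 in wild type TAC hearts, and differed by 1.66 ± 0.20 (limma adjusted p = 0.044). Ptgs2 read 8.08 ± 0.10 in knockout TAC hearts and 7.05 ± 0.31 in wild type TAC hearts and did not pass (limma adjusted p = 0.0592), and Jund did not pass either (limma adjusted p = 0.0631).

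Single hearts varied about their group mean to different degrees. The standard deviation within groups was 0.34 for Egr2, larger than for 96.0% of genes, and 0.26 for Atf3, larger than for 88.8%. It was 0.22 for Jun, 0.19 for Myc and Fosb, 0.17 for Fosl2 and 0.14 for Fos, where Fos lay near the middle of all genes. Over 12 arrays the 21 pairs among the 7 genes had a median Pearson r of 0.58, and 18 of them lay above 0. That r holds the differences between groups. With the group means taken out the median was 0.09, with 13 pairs above 0 and a range from -0.42 to 0.82.

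The pair with the highest r within groups was Egr2 and Atf3. Over 12 arrays the within-group Pearson r was 0.82 and the Spearman coefficient 0.73 (exact permutation p = 0.00617 over 1296 assignments of the hearts within groups, 2-sided, and adjusted p = 0.13 over the 21 pairs). Of the 21 pairs 0 had an adjusted p under 0.05. Without knockout sham replicate 3 and wild type TAC replicate 2, the arrays farthest out for Egr2, r was 0.80. For Egr2 and Myc the within-group r of 0.71 became -0.18 without the same 2 arrays, so it rests on them. For Fosl2 and Myc, which rose together in knockout hearts, the within-group r was 0.21.

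**Figure D4:**
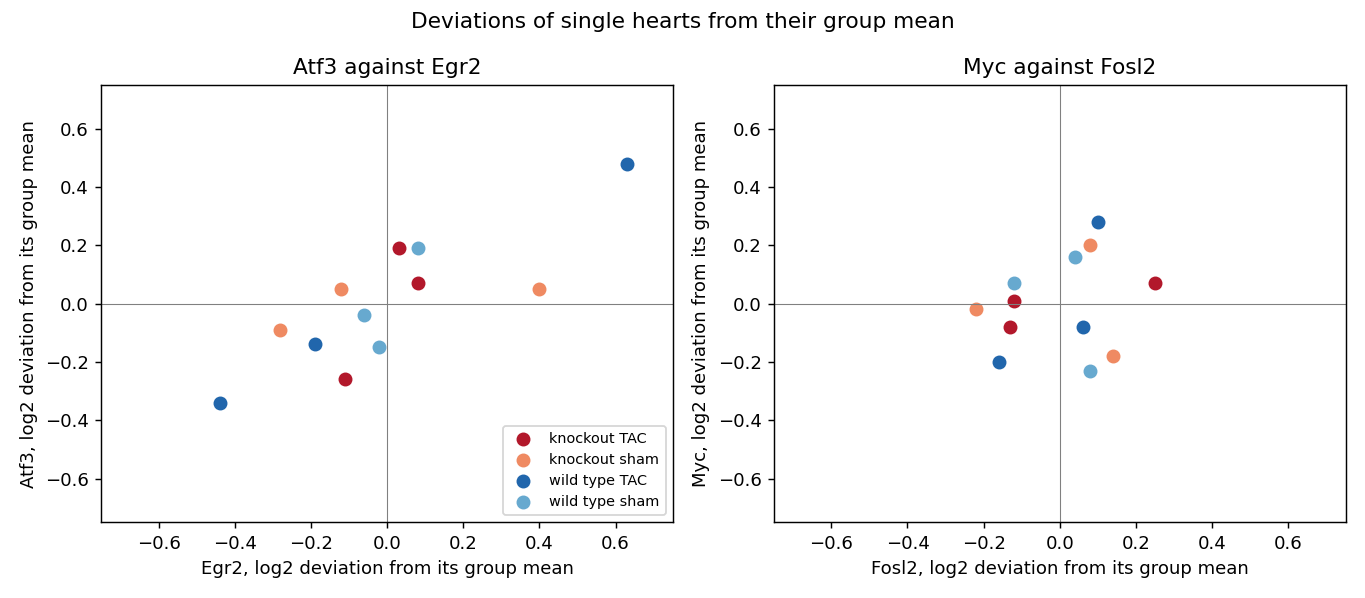
Log2 deviation of each heart from its group mean for Atf3 against Egr2 and for Myc against Fosl2 (both axes in log2 units), each point a heart coloured by its group. The within-group r is 0.82 for Egr2 and Atf3 and 0.21 for Fosl2 and Myc.

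The genes most like each factor over the 12 arrays, by Pearson r of the log2 signal, were found among all genes. The r holds the differences between groups, and the arrays share them. For Fosl2 these were Luzp1 at 0.972, Plekhg2 at 0.971 and Havcr2, a receptor of immune cells, at 0.970, and all 3 rose in knockout TAC hearts, by 0.48, 0.56 and 0.87. For Atf3 they were Abra at 0.968, Col11a1 at 0.943 and Myh7, the slow myosin heavy chain, at 0.938. Abra rose by 1.88 and Myh7 by 1.77 in knockout TAC hearts.

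For Myc the most alike were Eya2 at 0.956, Ap3b1 at 0.951 and Acot9 at 0.942. For Egr2 they were Arhgap25 at 0.907, Nop58, a nucleolar protein gene, at 0.899 and the stress factor gene Atf4 at 0.897. For Fos they were Parg at 0.949, BC005624 at 0.880 and the WNT receptor gene Fzd2 at 0.878. For Jun they were Fam81a at 0.831, the stress factor gene Ddit3 at 0.821 and Enoph1 at 0.813. For Fosb they were Gzmb at 0.907, Krtap5-1 at 0.895 and Tmc3 at 0.889. The group means of Fosb ran only from 4.30 to 4.37, and each of these genes had a within-group r of 0.91 with it. Wild type sham replicate 3 lay 0.39 above its group mean for Fosb, and how far the r rests on this array was not tested. Fosb, Gzmb and Tmc3 were dim, with group means under the array medians.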

How the data were processed

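The authors deposited a table of log2 signals for 65527 probe sets on 12 arrays, made from 250 ng of total RNA per heart with Affymetrix Expression Console, per the submitters' processing notes. The sources used here give neither its version nor its background correction and normalization. The log2 scale was read from the range of the values, 1.27 to 19.93.

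After removal of 6732 controls, 58795 probe sets remained, of which 27268 carried 1 gene symbol, 1932 several and 29595 none in the platform annotation. Each of 26989 genes was read on its brightest probe set with 1 symbol, with no filter on dim genes. Group means over all 12 arrays were fitted with limma 3.58.1 in R 4.3.3 (lmFit and eBayes, prior degrees of freedom 3.29, residual 8). Tests were 2-sided with Benjamini-Hochberg adjustment over all genes, with calls at adjusted p under 0.05. The procedure was tested on simulated data.

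From each list, up to 4 called genes with the smallest p were named per comparison, or at most 2 as values where none was called. For each factor the 3 genes with the highest r were named, passing over predicted genes and small RNAs. The factors and lists were chosen with earlier results of these data known. Alternatives covered filtering, scaling, features, variance model, array weights, thresholds, the replicate number and each array left out.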

Additional observations from a re-analysis of the deposited data

How the results depend on the processing

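For TAC in knockout hearts 3 of the 7 genes passed, and 2 to 3 when 1 array was left out. Testing against a minimum fold of 1.5 left 0 of the 7 genes, for TAC in knockout hearts and for TAC averaged over genotypes alike. The averaged comparison gave 3 to 4 genes when 1 array was left out: Jun passed without knockout TAC replicate 2 (limma adjusted p = 0.0369) and Egr2 without wild type TAC replicate 1 (limma adjusted p = 0.0465). Between knockout and wild type hearts after TAC, 1 gene, Fosl2, passed with dim genes left out (limma adjusted p = 0.032), with a replicate block (limma adjusted p = 0.0303) and at an adjusted p under 0.1. Leaving out 1 array there gave 0 to 1 genes, the 1 without wild type TAC replicate 2. The other comparisons gave 0 of the 7 genes under every alternative run, and no called difference changed sign. The filter on dim genes removes Fos and Fosb. Over all genes, TAC in knockout hearts called 3444, and 2098 without knockout TAC replicate 2, 2206 without knockout sham replicate 3 and 116 with the minimum fold. TAC in wild type hearts called 48, and 0 to 264 with 1 array left out, 211 with dim genes left out, 352 with array weights and 266 with the replicate block. Genotype after TAC called 3, and 0 to 774 with 1 array left out, 774 being without wild type TAC replicate 2, 616 with dim genes left out and 593 with the replicate block. The interaction called 0, and 151 without wild type TAC replicate 2. The averaged comparison called 3673, and 41 with the minimum fold. The causes were not tested. Over all groups the replicate numbers did not pair the hearts by the rule that every same-numbered pair correlates over 0.1: 9 of 18 did, from -0.07 to 0.31. Knockout TAC and knockout sham hearts met it, at 0.25, 0.14 and 0.17, and the block left 3 genes called there. Knockout TAC and wild type TAC hearts, at 0.21, 0.08 and 0.09, did not. A group size of 3 hearts and unknown normalization limit all of these values.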

Other observations

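The probe set that carries both Junb, an AP-1 subunit gene of the JUN family, and Prdx2, which encodes a peroxide-reducing enzyme, cannot be assigned to either. It read 6.11, 5.91 and 5.89 in knockout TAC hearts, against 5.76, 5.61 and 5.68 in knockout sham hearts. In this genotype every TAC array lay above every sham array, and the difference of 0.29 ± 0.11 did not pass in a limma fit of all probe sets (adjusted p = 0.16). It read 5.84, 5.87 and 5.53 in wild type TAC hearts, against 5.70, 5.75 and 5.71 in wild type sham hearts. These groups overlapped, with a difference of 0.03 ± 0.11 (limma adjusted p = 0.957).

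Among other immediate early genes, the zinc finger gene Klf10 had the smallest p of its list for the interaction, at 1.06 ± 0.21 (limma adjusted p = 0.259), which did not pass. It averaged 7.47 ± 0.13 in knockout TAC hearts and 6.96 ± 0.06 in knockout sham hearts, and 7.14 ± 0.17 in wild type TAC hearts and 7.69 ± 0.33 in wild type sham hearts. Nr4a1, an orphan nuclear receptor gene, averaged 9.59 ± 0.51 in knockout sham hearts and 7.79 ± 0.19 in wild type sham hearts, a difference of 1.80 ± 0.40 that did not pass (limma adjusted p = 0.839).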
